A study of Homo sapiens with 6 samples.

Results

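The chromosome 14q32 miRNA cluster was followed in 3 human colorectal cancer cell lines. Its members were all probes named for 1 of 48 miRNA numbers encoded at the locus, with either arm or with no arm given. The rule used names only and no measured value. It took 75 of the 1891 human miRNA probes on the array (3.97%), which carry 74 names, because miR-381-5p has 2 probes, and every one of the 48 numbers had a probe.

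The cells were Lovo, SW620 and HT29, established colorectal cancer lines. Stable transfection gave each of them a pSUPER gfp-neo vector with either a short hairpin RNA (shRNA) against TGF-β1, named shRNA-TGF-β1 (the knockdown), or a control hairpin, named shRNA-Control (the control). There was 1 array for each line and hairpin, 6 arrays in all, so that the 3 lines are the replicates of the comparison and no test exists within a line. Groups follow the sample titles. The labels' vector field says the opposite for 2 samples, the control of Lovo and the knockdown of HT29. By that field both Lovo samples would be knockdowns and both HT29 samples controls, with no contrast left within either line. Differences in Lovo and HT29 therefore hold only if the titles are right. TGFB1 mRNA has no probe on a miRNA array with which the knockdown could be checked.

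The 14q32 locus is imprinted: the genes for its miRNAs and for the long noncoding RNAs MEG3 and MEG8 are expressed from the chromosome inherited from the mother, while the protein-coding genes DLK1, RTL1 and DIO3 are expressed from that inherited from the father. Its miRNAs are best known from brain, placenta and embryonic tissue. MicroRNAs are cut from a hairpin that can give a product from its 5′ arm (5p) and its 3′ arm (3p), and each pairs with messenger RNAs mainly through its seed, bases 2 to 8.

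In the RefSeq annotation of GRCh38.p14, all 48 numbers had a hairpin in the locus. There were 51 hairpins, because some miRNAs have several copies, at chr14:100852390-101066801, a span of 214.4 kb. They form an upstream group, from miR-770 to miR-370, and a large downstream cluster that starts with miR-379, with 110.9 kb between these groups. miR-770 lies within MEG3 (chr14:100826108-100861026), and miR-370 within MEG8 (chr14:100889649-100999113). The hairpins of miR-431, miR-433, miR-127, miR-432 and miR-136 lie within the span of RTL1 (chr14:100879753-100903722), to which they are antisense. In the mouse these antisense miRNAs cleave the Rtl1 transcript. The hairpins of miR-381, miR-487b, miR-539, miR-889 and miR-655 lie within the noncoding gene MIR381HG (chr14:101045157-101051795). The matched mature sequences were all on the plus strand.

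Of the 75 probes, 12 were detected on at least 1 array. Detection meant a signal of at least 50 intensity units, the signal being the median foreground minus background of a probe's spots. The mature sequences of 11 of these 12 are shown because the results turn on them. They come from RefSeq (GRCh38.p14), read 5′ to 3′ in genome order, with the seed in capitals; the other detected member was miR-668.
miR-337-3p, chr14:100874553-100874574: cUCCUAUAugaugccuuucuuc
miR-665, chr14:100875075-100875094: aCCAGGAGgcugaggccccu
miR-127-3p, chr14:100883035-100883056: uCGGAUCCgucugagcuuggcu
miR-299-3p, chr14:101023832-101023853: uAUGUGGGaugguaaaccgcuu
miR-323a-3p, chr14:101025782-101025802: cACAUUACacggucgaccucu
miR-495-5p, chr14:101033768-101033789: gAAGUUGCccauguuauuuucg
miR-654-5p, chr14:101040234-101040255: uGGUGGGCcgcagaacaugugc
miR-381-5p, chr14:101045927-101045948: aGCGAGGUugcccuuuguauau
miR-382-3p, chr14:101054352-101054372: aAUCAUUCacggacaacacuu
miR-485-3p, chr14:101055464-101055485: gUCAUACAcggcucuccucucu
miR-377-5p, chr14:101062056-101062077: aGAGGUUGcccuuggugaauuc

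The 11 seeds were all different. Over the whole cluster, 62 of the 75 probes matched a RefSeq mature name exactly (61 names), and these held 55 distinct seeds. There were 6 pairs of members with a shared seed, and no pair had both members detected. miR-485-3p shares its seed with miR-539-3p, and miR-654-5p with miR-541-3p; the highest signals of these partners on any array were -26 and -27.5. Of the 1816 human probes outside the cluster, 1504 had a matched sequence, and none of these shared a seed with the 11.

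Most of the cluster gave no signal above this threshold. Its 12 detected probes made up 16% of members, against 37% of the 1816 human probes outside the cluster (672 probes). On all 6 arrays 4 members were detected (5.33%), against 13.5% of all human probes. The remaining 63 of the 75 were detected on no array, and the highest signal of 47 of them was below 0. Another 11 reached at most a signal between 0 and 30, and 5 between 30 and 50. Just outside the threshold lay miR-493-5p, at 46.5 in the Lovo control, and just inside lay miR-382-3p, at 50.5 and 50 on the Lovo arrays.

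**Figure D1:**
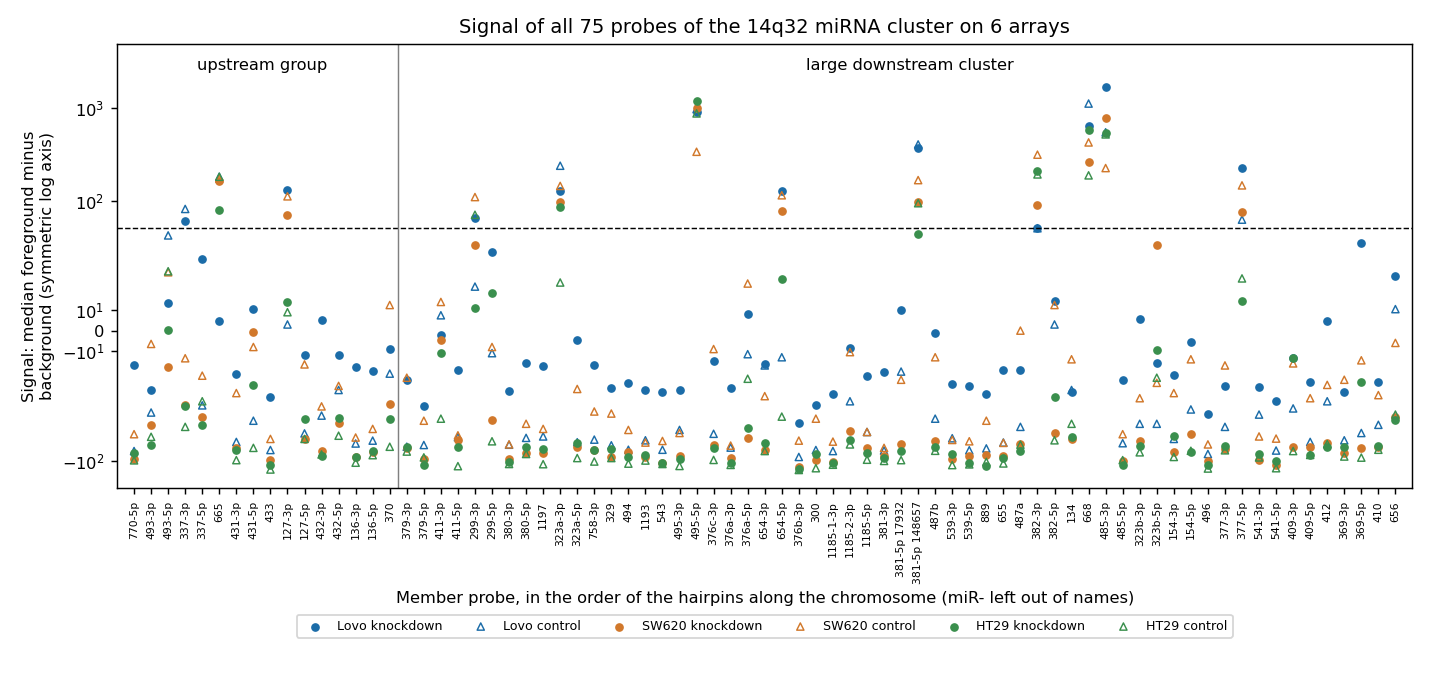
Signal of each of the 75 member probes (median over spots of foreground minus background, symmetric log axis) on 6 arrays, in the order of the hairpins along the chromosome. Filled circles are knockdown and open triangles control samples, colours mark the cell line, and the dashed line is the detection threshold of 50; 12 probes rise above it on at least 1 array and 63 do not.

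Many of the best studied members were among the undetected. miR-134, which restrains Limk1 in the dendritic spines of rat neurons, reached -14 at most, and miR-493-3p, the 3p arm of a hairpin studied in liver metastasis of colon cancer, reached -6.5. All 4 probes of the miR-376 family, known for A-to-I editing of its seed, were undetected. The highest signals of miR-409-3p, miR-410, miR-494 and miR-379-5p were -13.5, -25, -25.5 and -37. Among the members antisense to RTL1, only miR-127-3p was detected: both arms of miR-431, miR-432 and miR-136, the 5p arm of miR-127 and the probe for miR-433 stayed below threshold on all 6 arrays. These members are named as examples chosen after their values were seen. A signal below the threshold is a bound on this array and does not show that the miRNA is absent.

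The undetected members were set beside spots that carry no probe, which are not a floor for them: the undetected members' spots had medians of -92 to -21 on the 6 arrays, and the empty spots of 0 to 1. On the arrays 0% to 2.38% of the undetected members' 252 spots reached 50, against 0.0883% to 0.707% of the 1132 empty spots. The members' share is held low by their selection, since each of these probes had a median below 50 on every array. The empty spots were not selected by signal. The highest share, 2.38%, was on the Lovo knockdown array, which also had the lowest median background of the series (86, against 138 to 202) and correlated least with the rest of the arrays (mean r 0.633, the others 0.745 to 0.812). Because undetected members lay at different depths below 0, the threshold of 50 stood at a different height above them on each array, least in the Lovo knockdown (median -21) and most in the HT29 control (-92). The part of background in the number of members detected per array was not tested. The Lovo knockdown and control arrays detected 11 and 9 members, those of SW620 10 and 11, and those of HT29 6 and 7. The corresponding shares of members ran from 8% to 14.7%, and were below the share of all human probes, 21% to 28.7%, on each array.

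The detected members were spread over the locus. In the upstream group 3 of 16 probes were detected (18.8%), and in the downstream cluster 9 of 59 (15.3%). The members' summed signal was 1.95% and 1.48% of the summed human miRNA signal in the Lovo knockdown and control, 1.22% and 0.974% in SW620, and 1.16% and 0.649% in HT29. The knockdown value was the higher in each of the 3 lines. In HT29 the summed human signal itself differed, at 244049.5 in the knockdown and 341166.5 in the control, which widened the gap in share. On each array the 3 members with the highest signal made up much of the members' sum, from 45.8% (SW620 control) to 82.1% (HT29 knockdown). The members' sums therefore depend strongly on a few probes, and by themselves they do not tell whether the cluster as a whole was higher. These sums are over probes that bind with different strength, so they compare arrays and not members. The placental miRNA cluster on chromosome 19, another imprinted cluster, had 10 of 49 probes detected (20.4%). Its 4 probes detected on all 6 arrays were 8.16% of that cluster.

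Of the sequence features, base composition was set beside detection. Only probes with a matched RefSeq sequence entered, 62 of the 75 members and 1504 of the 1816 probes outside the cluster. The detected miR-668 was not among them. The 11 detected members had a median GC content of 50% and the 51 undetected members of 45.5%. Detected and undetected probes outside the cluster both had 50%. By class of GC, detection held for 1 of 15 members against 29.3% of other probes under 40% GC, 4 of 22 against 43.1% from 40% to 50%, and 4 of 20 against 36.3% from 50% to 60%. At 60% GC and above, 2 of 5 members were detected, against 38.4%. The differences between these shares were not tested.

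Where the array had probes for each arm, a detected member came with an undetected partner from the same hairpin. miR-665 and miR-668, whose probes name no arm, have no partner on the array. Of the 25 hairpins with a probe for each arm, 10 had 1 arm detected, none had both, and 15 had neither. The detected arm was the 5p arm in 4 hairpins (miR-495, miR-381, miR-377 and miR-654) and the 3p arm in 6 (miR-485, miR-382, miR-323a, miR-127, miR-299 and miR-337). The 10 partner arms reached at most -29 to 38.5. For miR-495-5p the partner miR-495-3p reached -29, and for miR-485-3p the partner miR-485-5p reached -24. Among the 307 human hairpins outside the cluster that had probes for each arm and at least 1 arm detected, 79 had both (25.7%). This is a description, since probes for different arms differ in how brightly they bind.

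**Figure D2:**
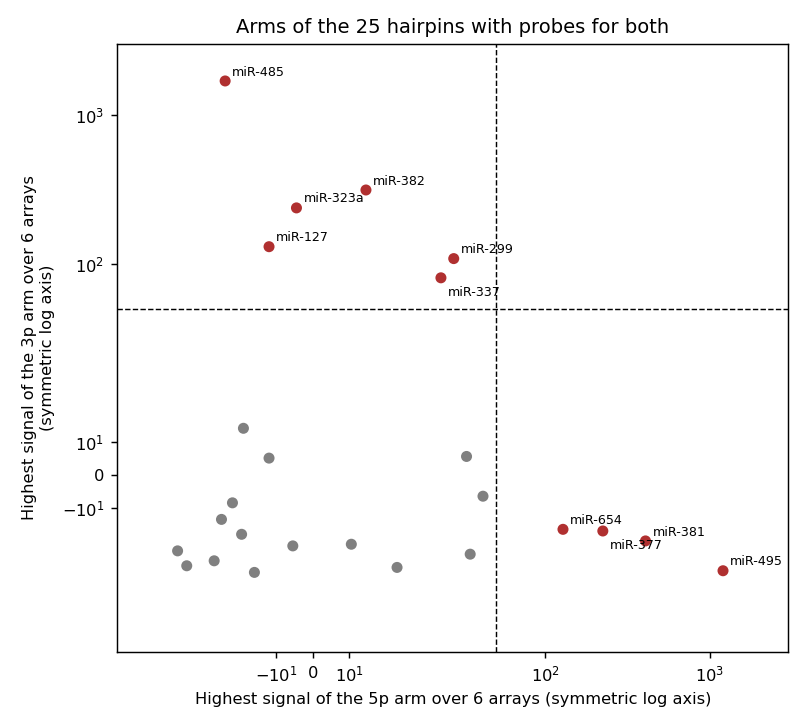
Highest signal of the 5p arm (horizontal axis) and of the 3p arm (vertical axis) over 6 arrays for the 25 hairpins with probes for both, on symmetric log axes; dashed lines mark the detection threshold of 50. Red points are the 10 hairpins with 1 arm detected, grey points the 15 with neither, and no hairpin lies above both lines.

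The probes detected on all 6 arrays were miR-495-5p, miR-485-3p, miR-668 and miR-382-3p. Levels of different probes are not comparable, since each probe binds with its own strength, so each is described on its own.

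miR-495-5p, from the downstream cluster, had signals of 922.5 and 981.5 in the Lovo knockdown and control, 1009 and 338 in SW620, and 1201 and 881.5 in HT29. The SW620 control stood below the other 5 samples, and all 4 of its spots were above 50 on each array. Signals are given before normalisation; after quantile normalisation the log2 level was 10.44 and 10.04 in the Lovo knockdown and control, 10.19 and 9.17 in SW620, and 10.46 and 9.67 in HT29. After this scaling the knockdown was higher in 3 of 3 lines and its levels did not overlap with those of the controls. In Lovo the sign depended on the scaling: the signal before it was lower in the knockdown, and the log2 difference was -0.12 without normalisation and -0.01 in the authors' value table.

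miR-485-3p is the other arm of a hairpin whose 5p product regulates the synaptic vesicle protein SV2A in rodent neurons. Its signal was 1694.5 and 550 in the Lovo knockdown and control, 794 and 225 in SW620, and 535.5 and 522 in HT29. The Lovo knockdown was the highest sample and the SW620 control the lowest. Its log2 level was 11.39 and 9.42 in Lovo, 9.99 and 8.71 in SW620, and 9.57 and 9.22 in HT29, so the groups did not overlap here either, although the lowest knockdown and the highest control were close. Without normalisation they overlapped, with a difference of -0.06 in HT29.

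miR-668, whose probe names no arm, had signals of 642.5 and 1128 in the Lovo knockdown and control, 262 and 427 in SW620, and 581.5 and 187.5 in HT29. The control was the higher in Lovo and SW620 and the knockdown in HT29, and the groups overlapped. Its spots differed widely within 1 array: in the HT29 knockdown they read 140, 198, 965 and 1210.

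miR-382-3p had signals of 50.5 and 50 in the Lovo knockdown and control and 90 and 314.5 in SW620. In HT29 the log2 level was 8.64 in the knockdown and 8.57 in the control. Lovo was at the threshold on both arrays, and the SW620 control was the highest sample. The Lovo values rest on spots on either side of the threshold.

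**Figure D3:**
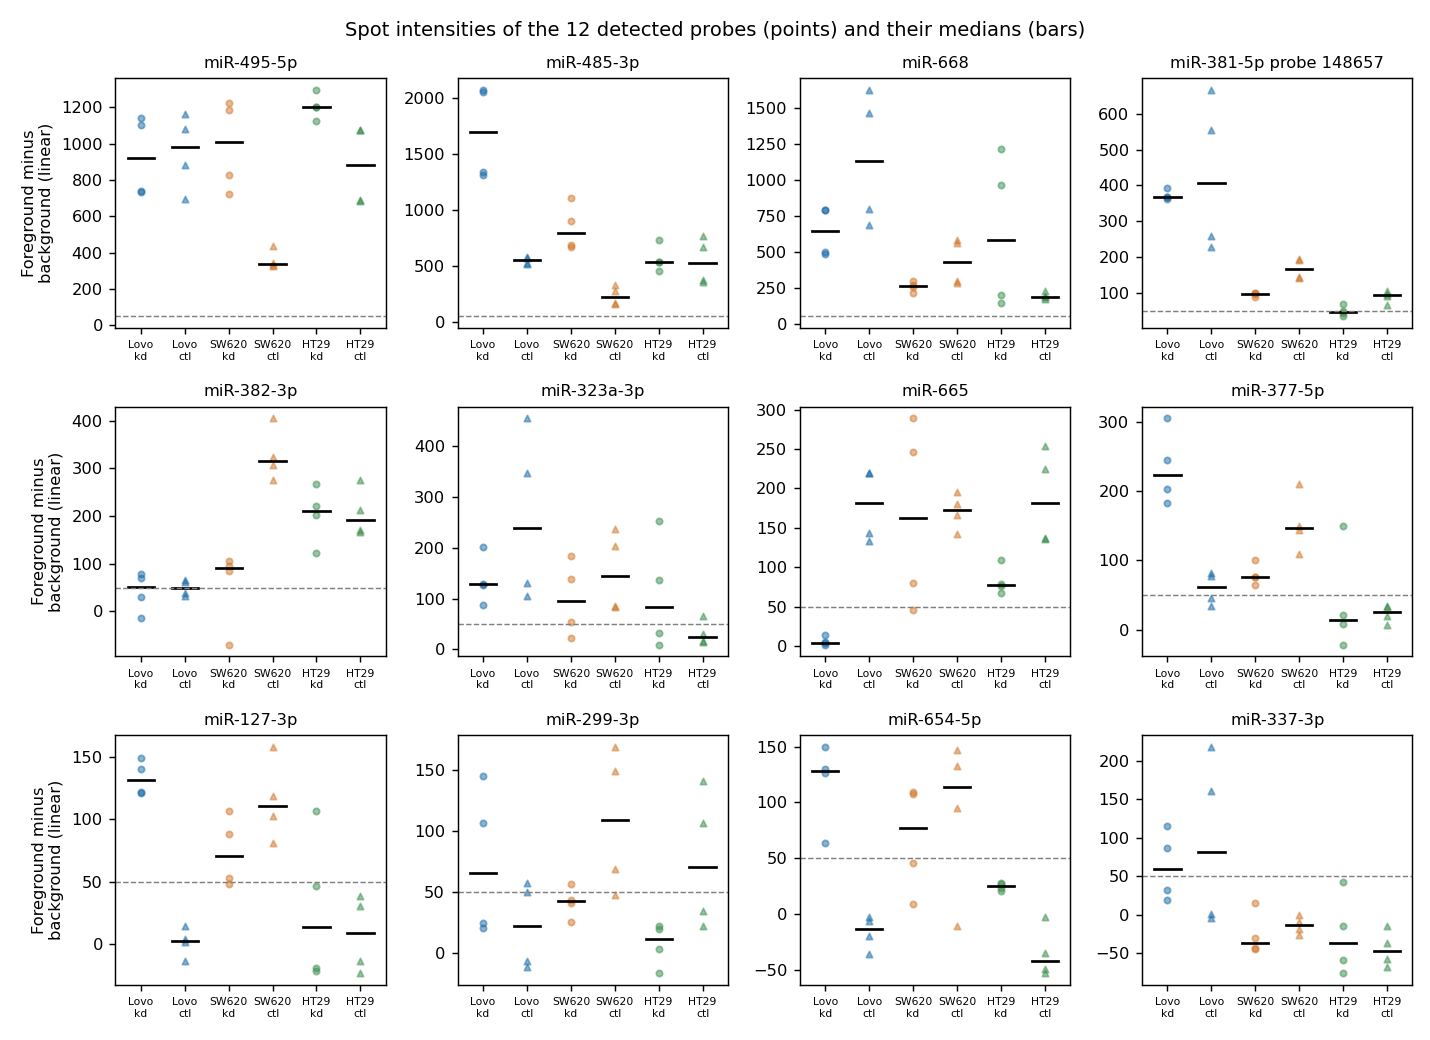
Foreground minus background of every replicate spot (points) and their median (black bars) for the 12 detected probes on each array, kd for knockdown and ctl for control; each panel has its own linear axis and the dashed line is the threshold of 50. Spots of miR-495-5p, miR-485-3p and miR-668 lie above the threshold on all 6 arrays, whereas miR-299-3p and miR-337-3p have no array with all spots above it.

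The other 8 were detected on some arrays only. The probe of miR-381-5p with the signal had 367.5 and 406 in the Lovo knockdown and control, 97 and 166.5 in SW620, and 47 and 93.5 in HT29, above threshold everywhere but the HT29 knockdown. The 2 Lovo samples stood above all others. The second miR-381-5p probe reached 10 at most and was detected on no array, so the probes of this miRNA disagree.

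miR-323a-3p had signals of 128 and 238.5 in the Lovo knockdown and control and 84 and 23.5 in HT29, where the control was the only sample without detection. In SW620 its log2 level was 8.18 in the knockdown and 8.26 in the control. miR-665, from the upstream group, had 4.5 and 181 in Lovo, 163 and 173 in SW620, and 78 and 181 in HT29. The Lovo knockdown was the only sample with miR-665 below the threshold, and all 3 controls had similar values.

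miR-377-5p had signals of 223.5 and 62 in the Lovo knockdown and control, 76 and 146 in SW620, and 14.5 and 25.5 in HT29. It was detected in Lovo and SW620 only. miR-127-3p had 131 and 3 in Lovo, 70.5 and 111 in SW620, and 14 and 9 in HT29. Here the Lovo control and both HT29 samples were below the threshold. They stood above the median of undetected member probes on those arrays, which was -54.5, -75 and -92 (Lovo control, HT29 knockdown, HT29 control).

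miR-654-5p had signals of 128 and -13 in the Lovo knockdown and control, 77 and 114 in SW620, and 25 and -42 in HT29. miR-299-3p had 65 and 21.5 in Lovo, 42 and 109 in SW620, and 11 and 70 in HT29, with 1 sample above threshold in each line. miR-337-3p had 59.5 and 81 in Lovo and -13.5 or less in the other 4 samples; it was the only member detected on both arrays of 1 line and on no other array. No member was detected in every knockdown and no control, or the reverse.

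The study's main question, whether miRNAs differ when TGFB1 is knocked down, was asked of the 12 detected members, all of which were among the 570 human probes detected on at least 2 arrays and so entered the test. Differences are knockdown minus control on the log2 scale after normexp with an offset of 50, which draws the differences of dim probes toward 0. No member passed the limma test with the cell line as a block and Benjamini-Hochberg adjustment, with 0% of all 570 probes called. Other scalings also called 0 members, while the number of all probes called was 32 with median scaling, 5 with cyclic loess and 4 in the authors' value table. At an unadjusted p under 0.05 there was 1 member, miR-485-3p, against 10.7% of all probes tested. The smallest adjusted p was 0.331 among members and 0.155 among all probes.

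For miR-485-3p the difference was 1.97 ± 0.18 in Lovo (SE over spots, technical error only), 1.28 ± 0.21 in SW620 and 0.35 ± 0.22 in HT29, higher in the knockdown in 3 of 3 lines. Its mean was 1.20 ± 0.43 (limma SE, n = 3 pairs, limma adjusted p = 0.331). The group means were 10.32 in the knockdown and 9.12 in the control. Without the Lovo pair the mean was 0.82, and without the HT29 pair it was 1.63 (limma adjusted p = 0.0745).

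For miR-495-5p the difference was 0.40 ± 0.21 in Lovo, 1.02 ± 0.17 in SW620 and 0.80 ± 0.15 in HT29. Its mean was 0.74 ± 0.37 (limma SE, n = 3 pairs, limma adjusted p = 0.52), higher in 3 of 3 lines. The group means were 10.36 in the knockdown and 9.63 in the control. These were the 2 tested members whose 3 knockdown levels all lay above the 3 control levels, where 7.37% of all probes tested did so. Without normalisation both overlapped, and miR-495-5p also did with median scaling and in the authors' value table. No tested member had all knockdown levels below, against 9.3% of all probes tested. This too depended on the scaling: miR-665 had them all below with plain background subtraction, with median scaling and in the authors' value table. With plain background subtraction miR-654-5p had them all above.

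Of the dimmer members, 2 had the same sign in all lines. miR-654-5p had a mean of 0.42 ± 0.27 (limma adjusted p = 0.579), and miR-127-3p of 0.24 ± 0.28 (limma adjusted p = 0.747). In both, Lovo had only a bound because the control was undetected: miR-654-5p was at least 1.44-fold and miR-127-3p at least 1.55-fold higher in the knockdown. Such a bound replaces the undetected level by the lowest level that array could detect, where this is above the probe's own. In SW620, where they were detected on both arrays, they differed by 0.17 and 0.00. In HT29 neither miRNA was detected on either array, so its sign there rests on levels below the threshold.

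In all, 4 of the 12 tested members were higher in the knockdown in all 3 lines, against 17.7% of all probes tested. None of the 12 was lower in all 3, against 17.2%, and 8 were mixed in sign. The count of higher members depended on the scaling. It was 0 without normalisation (7.54% of all probes), 2 with median scaling (miR-485-3p and miR-495-5p, against 11.4%) and 1 in the authors' value table (miR-485-3p, of 10 members with every value). The count of members lower in all 3 lines moved as well. It was 2 without normalisation and in the value table, and 1 with plain background subtraction, median scaling, cyclic loess and median of spots. Of the 4 members higher after quantile normalisation, miR-127-3p counted as higher in SW620 on a difference of 0.00 ± 0.12. In SW620 the signals of miR-127-3p and miR-654-5p were lower in the knockdown before scaling. The lowest mean differences belonged to miR-665 (-0.52 ± 0.32, limma adjusted p = 0.579) and miR-382-3p (-0.44 ± 0.32, limma adjusted p = 0.615). Without the Lovo pair miR-665 was at -0.20, and without the SW620 pair miR-382-3p was at -0.09. With plain background subtraction they were at -2.50 and -1.94. In Lovo, miR-665 was detected in the control alone, at least 1.86-fold above the knockdown; it differed by 0.01 in SW620 and -0.41 in HT29. The remaining 6, miR-377-5p, miR-337-3p, miR-668, miR-323a-3p, miR-381-5p and miR-299-3p, had mean differences from -0.14 to 0.20. The median over the 12 was -0.01 (5 higher and 7 lower), against 0.05 over all 570 (313 higher and 257 lower). 

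**Figure D4:**
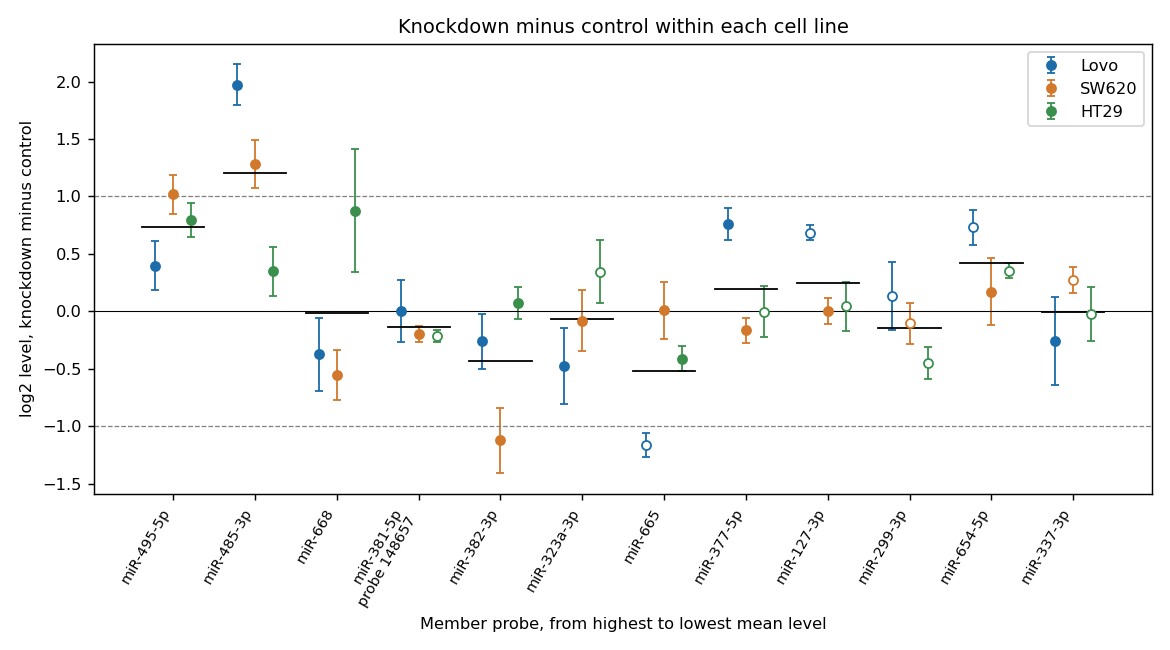
Difference in log2 level, knockdown minus control, within Lovo, SW620 and HT29 for the 12 detected probes, with the SE over replicate spots (technical error only); filled points were detected on both arrays of the line, open points on 1 or neither, and black bars are the mean of 3 lines. Dashed lines mark a 2-fold difference, which miR-485-3p passes in Lovo and SW620, miR-495-5p and miR-382-3p in SW620, and miR-665 in Lovo, where its knockdown was undetected (open point).

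Within each line, members detected on both arrays were counted by size, with no test. In Lovo 1 of 8 differed by at least 2-fold (miR-485-3p, higher), against 12.5% of all human probes detected on both arrays, of which 6.13% were higher and 6.37% lower. In SW620 there were 3 of 10, against 14.4% (6.25% higher and 8.15% lower): miR-485-3p and miR-495-5p were higher and miR-382-3p lower, at -1.12 ± 0.29 (SE over spots). The miR-382-3p difference rested in part on 1 knockdown spot at -70 beside spots of 85, 95 and 105. It was -0.88 with the median of spots and -0.91 without normalisation, under 2-fold in each, and miR-495-5p in SW620 was 0.91 with median scaling and 0.95 with cyclic loess. In HT29 there were 0 of 5, against 11.9% (5.03% higher and 6.92% lower). The largest there was miR-668, at 0.88 ± 0.54, followed by miR-495-5p.

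Each probe had 2 of its spots in the first set of an array's blocks and 2 in the second, and differences were recomputed from each set, a check chosen after seeing the data. miR-485-3p kept its sign in each set, with differences of 1.49 and 2.17 in Lovo, 1.00 and 1.54 in SW620, and 0.29 and 0.21 in HT29. Its gaps of 0.69 in Lovo and 0.54 in SW620 were wider than the median gap of human probes detected on both arrays, 0.35 and 0.33. miR-495-5p did so too, as did miR-382-3p in SW620, at -1.14 and -1.22. miR-668 turned sign between the sets in all 3 lines. Its difference was 0.39 in the first set and -1.19 in the second in Lovo, 0.12 and -1.24 in SW620, and -0.16 and 1.87 in HT29. Over members detected on both arrays of a line, the sets had the same sign for 6 of 8 in Lovo, 5 of 10 in SW620 and 4 of 5 in HT29, against 72.5%, 69.8% and 70.1% of human probes.

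**Figure D5:**
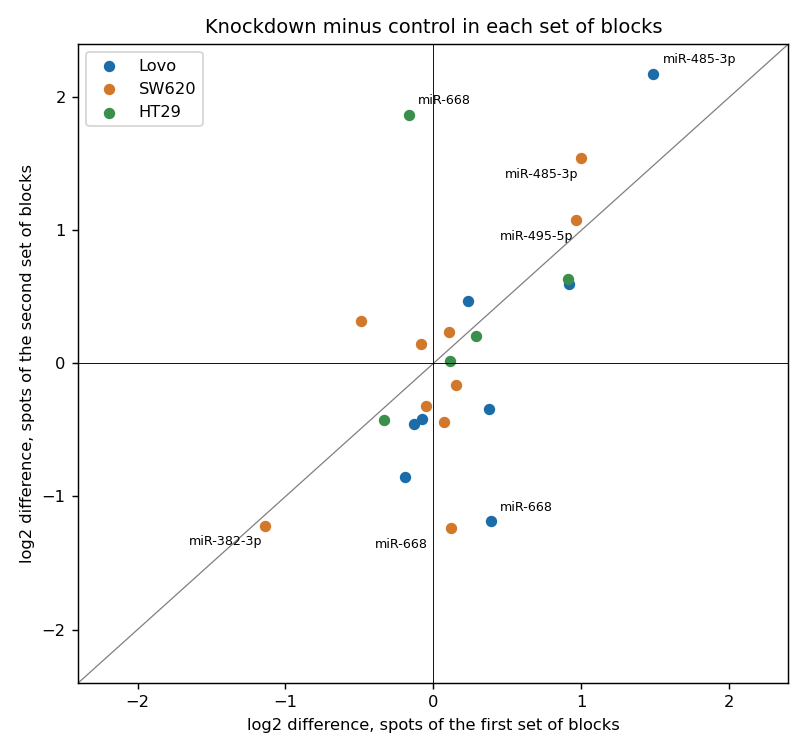
Difference in log2 level, knockdown minus control, computed from the spots of the first set of blocks (horizontal axis) and the second set (vertical axis), for members detected on both arrays of a line; the grey line marks equal values. miR-382-3p in SW620 lies near the line, miR-485-3p in Lovo and SW620 lies above it with the same sign in each set, and miR-668 lies far from it in all 3 lines.

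The 3 lines were compared in the same fit, with the shRNA as a block. No member passed limma's F-test after adjustment, with 0% of all 570 probes called, and the smallest adjusted p among members was 0.828. At an unadjusted p under 0.05 there was 1 member, against 5.61% of all probes tested. It was miR-381-5p, whose mean log2 level over both arrays was 9.12 in Lovo and 8.30 in SW620 and lowest in HT29 (limma adjusted p = 0.828). miR-485-3p and miR-668 were also highest in Lovo, at 10.40 and 10.02, and did not pass (limma unadjusted p = 0.135 and 0.132). miR-382-3p went the other way, with 7.64 in Lovo, 8.52 in SW620 and 8.61 in HT29 (limma unadjusted p = 0.0708). For miR-495-5p the line means were 10.24, 9.68 and 10.06 (limma unadjusted p = 0.487). With 2 arrays a line, one of them a knockdown, the order of the lines rests on pairs whose spread includes the shRNA difference.

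Markers of other cell types were read on the same arrays, where 36.2% of all human probes were detected on at least 1 array. Of 15 gut epithelium miRNA probes, 8 were detected on at least 1 array, 8 and 6 on the Lovo knockdown and control, 1 and 2 in SW620, and 1 and 0 in HT29. Their summed signal was 8825 in the Lovo knockdown and 1370 in its control, and 32.5 to 418 on the other 4 arrays. In Lovo, miR-141-3p had 4531 in the knockdown and 245.5 in the control, and miR-192-5p 1912.5 and 242, in the pair with the largest miR-485-3p difference. The list did not move as a whole: in Lovo miR-375 had 386 in the knockdown and 494 in the control, and miR-200b-3p 159 and 201.5. The other detected gut probes were higher in the Lovo knockdown. miR-215 was detected on none. Of 9 fibroblast and smooth muscle probes, 8 were detected, with a summed signal of 636.5, 1544.5 and 1881 in the Lovo, SW620 and HT29 knockdowns and 2784, 4913 and 4809.5 in the controls. Each knockdown was below its control in this sum. Most of it was miR-199a-5p, and without that probe the sums were 314.5 and 683 in the Lovo knockdown and control, 640 and 578.5 in SW620, and 814.5 and 1714 in HT29. Of 11 blood cell probes 5 were detected, miR-150-5p on all 6 arrays and miR-142-3p on 5, the latter up to 2645 in the HT29 control, while miR-144 and miR-223 were detected on none. The blood cell sum was 428 and 766.5 in the Lovo knockdown and control, 1407 and 1806 in SW620, and 571.5 and 3267.5 in HT29. Its probes were mixed in direction. miR-142-3p and miR-142-5p were lower in the knockdown in each line. miR-150-5p and miR-486-5p were higher in the knockdown in Lovo and HT29 and lower in SW620. For miR-486-5p both HT29 values were below the threshold. miR-451a was detected in the SW620 knockdown alone. The part of any of these marker differences in the members' values was not tested.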

How the data were processed

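Per the labels' protocols, total RNA was labelled at its 3′ end with Hy3 and hybridised to 1-colour miRNA arrays, and the cultures were grown independently. Per the file headers, the deposited table of spots gives foreground intensity and foreground minus background intensity for 15840 spots on each array. The authors' value table holds a ratio: a probe's median background-subtracted intensity over a factor set for each array, with empty cells where that median was not above 0. It is linear and not centred, with column medians of 0.372, 0.493, 0.551, 0.446, 0.537 and 0.638 (Lovo, SW620, HT29, knockdown then control); the derivation of the factor and the scanner were not given in the sources used here.

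From the deposited intensities, log2 levels were computed with limma 3.58.1 in R 4.3.3: normexp with an offset of 50, log2, the mean over a probe's 4 spots, and quantile normalisation. lmFit and eBayes with a trend were run on the human probes with detection on 2 or more of the 6 arrays, with the cell line as a block because a pair shares its line, and with Benjamini-Hochberg adjustment over all 570; the fit leaves 2 residual degrees of freedom. Between lines the shRNA was the block. Precision is limited by the number of arrays. In 10 simulated data sets of the comparison across lines on 570 probes, 57% of probes with a log2 difference of 1, 99.5% with 2 and 100% with 3 were called. All simulated probes had the same normal spread and took the full difference. Real probes differ in spread, and the offset shrinks differences of dim ones, so these shares do not give the power in the data. Named members were those detected on all 6 arrays (up to 10 by mean level; there were 4), the 6 highest and 6 lowest mean differences, members at least 2-fold different in a line, members detected in 1 line or 1 group only, and the other arm of each; any other was chosen after its values were seen. The members and lists were chosen with earlier results of these data known. RefSeq sequences were matched by exact name.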

Additional observations from a re-analysis of the deposited data

How the results depend on the processing

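Under every alternative background correction, normalisation, filter, spot average and variance model, in the authors' value table and from either set of blocks (added after seeing the data), 0 members were called across lines and 0 between lines, and leaving out each pair or array changed neither. Over all probes, 32 were called across lines with median scaling, 5 with cyclic loess and 4 in the value table. Without the cell line as a replicate block 0 members were called across lines, and without the shRNA as a block 0 between lines (smallest limma adjusted p 0.447 and 0.981); the block changed no other call. The median difference of members, -0.01, was 0.23 with plain subtraction, -0.17 without normalisation, -0.084 with median scaling, -0.20 in the value table, 0.16 and -0.10 from the first and second set of blocks, 0.36 over the 4 members detected on all arrays, and 0.011 to 0.092 leaving out a pair. The median of all probes tested was 0.05, and -0.12 without normalisation and -0.09 in the value table. Counts of at least 2-fold became 4 in Lovo and 1 in HT29 with plain subtraction, 2 in Lovo, 6 in SW620 and 2 in HT29 in the value table, 1 in SW620 from the first set of blocks, 2 in Lovo and 1 in HT29 from the second, and 2 in Lovo and 2 in HT29 at 1.5-fold. SW620 had 2 with median of spots and without normalisation (2 higher, 0 lower) and with median scaling and cyclic loess (1 higher, 1 lower). Mean differences changed sign for miR-337-3p (1.53 with plain subtraction, 0.20 in the first set), miR-323a-3p (0.059 in the value table, 0.003 in the first set), miR-377-5p (-0.026) and miR-654-5p (-0.89) in the value table, and miR-381-5p (0.028) and miR-668 (0.11) in the first set. Leaving out a pair gave -0.141 to 0.124 for miR-337-3p, -0.278 to 0.133 for miR-323a-3p, -0.084 to 0.378 for miR-377-5p, -0.278 to 0.014 for miR-299-3p and -0.465 to 0.250 for miR-668, and, with no change of sign, -0.69 to -0.09 for miR-382-3p and -0.79 to -0.20 for miR-665. The cause was not tested. miR-485-3p ranged from 0.82 to 1.63 and miR-495-5p from 0.48 to 0.92. Detection on at least 1 array held for 17, 11 and 13 members with a minimum of 30, a minimum of 100, or foreground at least 1.5 times background. Signal near background limits the dim members.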

Other observations

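RefSeq (GRCh38.p14) places 2 further miRNAs of the array beside the members on chromosome 14, miR-544a and miR-2392, which the rule for members did not take. Neither was detected on any array, with highest signals of -38.5 and -10. Of the marker lists for other tissues, 3 of 4 neural, 3 of 4 muscle and 1 of 2 liver probes were detected on at least 1 array. The share of all human probes was 36.2%. On all 6 arrays 2 neural probes, 1 muscle probe and 1 liver probe were detected, against 13.5% of all human probes.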
